A study of Mus musculus with 15 samples.

Results

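Dopaminergic nuclei of the mouse ventral tegmental area (VTA) were compared between the end of cocaine maintenance (n = 3 samples) and the end of food training (n = 4 samples). These 7 samples were chosen by their labels out of 15 in the series. The other 8 were 4 samples of dopaminergic nuclei after home-cage abstinence and 4 of non-dopaminergic nuclei after food training, and they enter below only as points of reference.

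All mice were males heterozygous for Cre at the dopamine transporter locus (DAT-Cre, B6.SJL-Slc6a3tm1.1(cre)Bkmm/J), 8 to 12 weeks old. All received the virus AAV5-DIO-KASH-HA in the VTA 14 days before training, so every group carries Cre and the HA tag that was used to sort the nuclei. Food-trained mice learned over 7 days to press a lever for food, from a fixed ratio of 1 press to a ratio of 5. Maintenance mice went through the same training, then through jugular catheter surgery, 5 daily sessions of cocaine at 0.3 mg/kg per infusion and 10 at 1.0 mg/kg per infusion, each of 1 hour, and were killed after the last of them. The abstinence mice spent a further 21 days in the home cage. Each sample pooled VTA tissue of 2 mice. Cocaine, surgery, the intravenous schedule and the added age came together in the maintenance group and cannot be told apart.

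Cocaine blocks the dopamine transporter, so that dopamine released by VTA neurons stays longer outside the cell. Dopamine acts back on these neurons through autoreceptors that open potassium channels, and their firing also depends on glutamate and GABA inputs. Nuclear RNA holds much newly made, unspliced transcript, so the levels below describe the nucleus and not the whole cell.

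The sorted nuclei carried the markers of their label. Slc6a3, the dopamine transporter, stood at 2647, 1965 and 3076 CPM (counts scaled per 1e6 reads counted) in maintenance replicates 1 to 3. In food training it stood at 2291, 2960, 2305 and 4484 CPM, and in the non-dopaminergic libraries between 76.8 and 119.3 CPM. Th, which makes the dopamine precursor, ranged from 496.7 to 1285 CPM at maintenance and from 567.4 to 1381 CPM in food training. Neither marker separated the stages. The summed CPM of 20 dopamine neuron markers was 9936 to 12150 at maintenance and 8236 to 15240 in food training, and 0 of the 20 were at 0 in all libraries of either group. The non-dopaminergic libraries summed to between 531.4 and 781.0 CPM.

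Depth was 32032303 to 53019621 counts per library at maintenance and 25813697 to 57522235 in food training, with 15805 to 17204 and 14841 to 18372 genes detected. The mean correlation of log2 CPM over genes was 0.805 between maintenance replicates, 0.759 between food-trained replicates and 0.747 between the groups. The labels do not say whether replicates were sorted or prepared separately beyond the pooling of mice, so p-values measure the spread between these samples. The counts carry no molecular identifiers, and floors on counts cover counting error only.

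The maintenance libraries stood apart in base composition, and this touches every result that follows. Each library's log2 CPM deviation was regressed on transcript GC. Maintenance replicates 1 to 3 had slopes of -0.0290, -0.0178 and -0.0315 per percent GC. In food-trained replicates 1 to 4 they were 0.0223, -0.0102, 0.00123 and 0.0225. All 3 maintenance slopes were under all 4 food-trained slopes, so GC-rich transcripts were under-represented at maintenance. The difference of -0.0351 had an exact two-sided permutation p of 0.0571 over the 35 arrangements of 3 against 4 libraries, where the smallest possible value is 0.0286. Of the 4 non-dopaminergic libraries, none of which had seen cocaine, replicate 2 had a slope of -0.0248 and the others 0.0209 to 0.0323 in the scaling of all 15 libraries. The labels give no library batch or date, so a batch and the stage cannot be told apart.

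**Figure D1:**
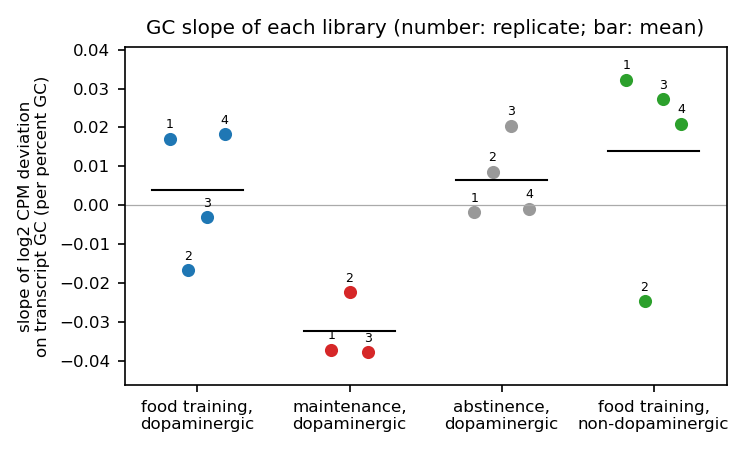
Slope of the log2 CPM deviation on transcript GC content (per percent GC) for each of the 15 libraries, in the scaling of all 15. Numbers are replicates and bars are group means. The 3 maintenance libraries and non-dopaminergic replicate 2 (-0.0248) lie under the other libraries.

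Few genes passed the test between the stages, and nearly all of them were lower at maintenance. Of 19060 genes tested, 25 (0.131%) passed a Benjamini-Hochberg adjusted p of 0.05 in edgeR's quasi-likelihood test, 24 lower (0.126%) and 1 higher (0.00525%). At an unadjusted p under 0.05 there were 2215 genes (11.6%), 930 higher (4.88%) and 1285 lower (6.74%). The groups did not overlap in all 25, against 1620 of all genes tested (8.5%), that is, 4.29% higher and 4.21% lower. In all 24 lower genes the highest maintenance library was also under the lowest of the 4 abstinence libraries. The share of all genes with that order was not counted, and the abstinence libraries were part of the same fit.

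The number called depended on the test and on single libraries. A fit of the 7 compared libraries alone called 1 gene, in place of 25 in the fit of the 11 dopaminergic libraries, and the DESeq2 test called 894 (215 higher, 679 lower). Without maintenance replicates 1, 2 and 3 in turn, 5, 78 and 7 genes were called, and without food-trained replicates 3 and 4, 43 and 12. Tmem145, Olig1 and Itga7 passed each time when any of the 7 libraries was left out. With an offset for GC content 14 genes were called, 11 of them among the 25. The 25 genes had a median transcript GC of 58.2% against 49.5% over all genes tested, and 22 of them lay above 55%, as did 21.9% of genes tested.

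**Figure D2:**
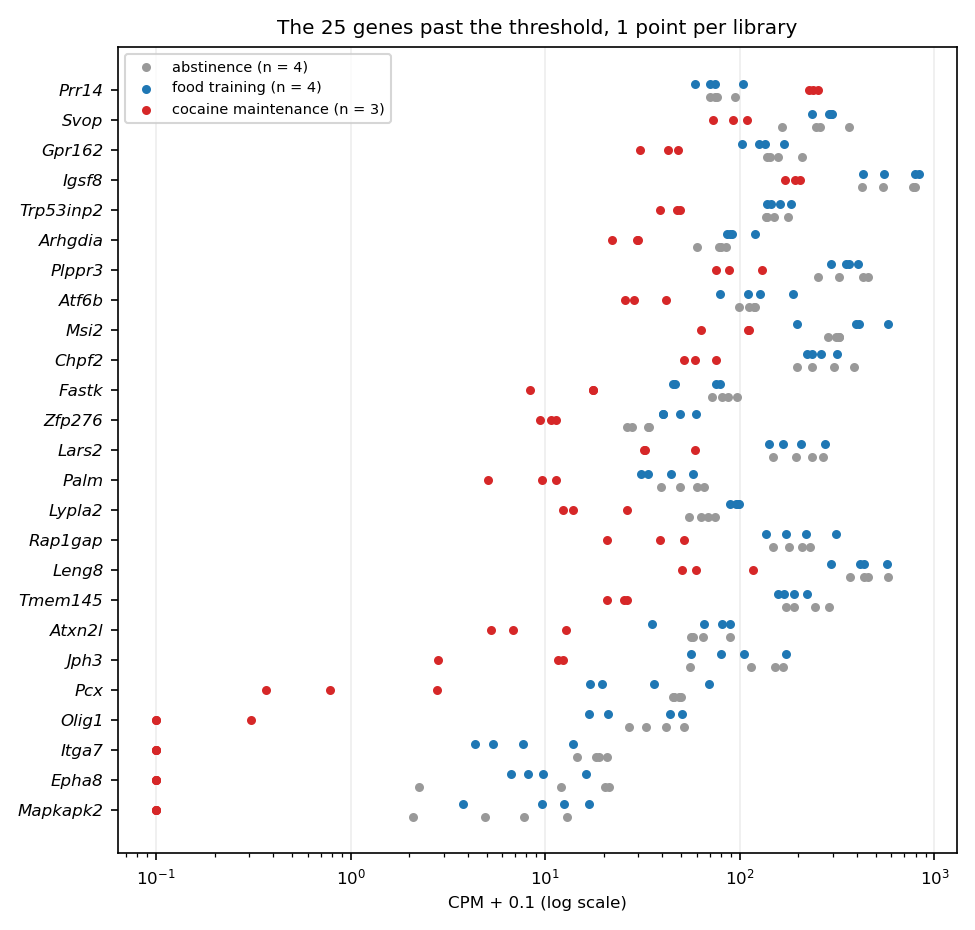
CPM plus 0.1 on a log axis for the 25 genes past the threshold, with 1 point per library for maintenance (n = 3), food training (n = 4) and abstinence (n = 4). Prr14 lies above the other groups at maintenance and the 24 other genes lie under them. Itga7, Epha8 and Mapkapk2 are at 0 in all 3 maintenance libraries.

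Prr14 was the gene that rose. It encodes a proline-rich protein that ties heterochromatin to the nuclear lamina through HP1, and it lies at chr7:127466324-127476767 of GRCm38. It stood at 239, 250 and 227 CPM at maintenance and at 70.0, 58.6, 104 and 74.2 CPM in food training. All maintenance libraries were more than the highest food-trained library, and the abstinence libraries, at 70.0 to 94.4 CPM, lay within the food-trained range. The log2 fold change was 1.64 (SE 0.24, edgeR adjusted p 0.0184) and 1.97 with the GC offset (edgeR adjusted p 0.0155), and its transcript is 56.2% GC. It did not pass without food-trained replicates 1 or 4 or maintenance replicates 1 or 3, with edgeR adjusted p of up to 0.0797. In non-dopaminergic nuclei, replicate 2 of Prr14 stood at 163 CPM and the other 3 libraries at 75.9 to 83.1 CPM.

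Tmem145, a multi-pass membrane protein, had the lowest p-value. Its levels were 26.2, 25.4 and 20.8 CPM at maintenance and 221, 156, 169 and 189 CPM in food training. The maintenance libraries were close to each other and far under every other dopaminergic library, with abstinence at 172 to 286 CPM. It fell by 2.93 in log2 terms (SE 0.27, edgeR adjusted p 0.000978), a fold of 7.61 between the group means. With the GC offset it fell by 2.29 (edgeR adjusted p 0.00423). In non-dopaminergic nuclei, which had seen no cocaine, replicate 2 of Tmem145 stood at 32.7 CPM and the other 3 libraries at 214 to 244 CPM. With a term shared by the maintenance libraries and that replicate in a fit of all 15 libraries, its log2 fold change was -0.10. A gene that is low in that replicate moves up in such a fit by construction, so this value is a description. It lies at chr7:25305500-25316196 and its transcript is 59.8% GC.

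The fallen genes Svop, Igsf8 and Plppr3 encode membrane proteins. Svop, a synaptic vesicle protein related to SV2, stood at 72.5, 109 and 91.7 CPM at maintenance and at 287, 299, 234 and 295 CPM in food training. Igsf8, an immunoglobulin-superfamily partner of tetraspanins, was at 170, 192 and 202 CPM against 553, 799, 427 and 832 CPM. Plppr3, of a membrane protein family linked to axon growth, was at 87.7, 130 and 75.5 CPM against 403, 293, 350 and 364 CPM. In each of these the highest maintenance library lay well under the lowest food-trained one. Log2 fold changes were -1.61 in Svop (edgeR adjusted p 0.0478), -1.79 in Igsf8 (0.0478) and -1.85 in Plppr3 (0.0233). None of the 3 passed with the GC offset, where their edgeR adjusted p were 0.219, 0.237 and 0.144.

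Jph3, a junctophilin that joins the endoplasmic reticulum to the plasma membrane in neurons, stood at 11.5, 2.71 and 12.2 CPM at maintenance. Food-trained libraries held 79.8, 56.1, 105 and 173 CPM, so the groups were far apart. Its log2 fold change was -3.55 (SE 0.59, edgeR adjusted p 0.0344). Palm, the lipid-anchored protein paralemmin, fell by 2.27 (edgeR adjusted p 0.0489), from 30.8 to 57.1 CPM in food training to 5.00 to 11.3 CPM. Gpr162, an orphan receptor, fell by 1.72 (edgeR adjusted p 0.0268), from 102 to 168 CPM to 30.6 to 48 CPM. None of these 3 passed with the GC offset, where the edgeR adjusted p were 0.163 in Jph3, 0.149 in Palm and 0.163 in Gpr162.

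Lypla2, Rap1gap and Arhgdia, which regulate other proteins, also fell. Lypla2, a thioesterase that removes palmitate from proteins, stood at 26.1, 12.2 and 13.7 CPM at maintenance and at 98.5, 97.1, 89.2 and 95.8 CPM in food training. Its food-trained libraries differed little from each other, and its abstinence libraries, at 55 to 74.2 CPM, lay between the 2 other groups. Lypla2 fell by 2.45 (SE 0.32, edgeR adjusted p 0.0103). Rap1gap, which switches off the GTPase Rap1, fell by 2.51 (edgeR adjusted p 0.0184), from 136 to 310 CPM to 20.6 to 51.4 CPM. Arhgdia, which holds small GTPases inactive in the cytosol, fell by 1.83 (edgeR adjusted p 0.0174), from 85.3 to 119 CPM to 21.8 to 29.9 CPM. Under the GC offset none of the 3 passed, at an edgeR adjusted p of 0.149 in Lypla2, 0.0515 in Rap1gap and 0.18 in Arhgdia.

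Mapkapk2, a kinase activated by p38 MAP kinase, was at 0 in all 3 maintenance libraries. Food-trained libraries held 9.50, 16.8, 3.67 and 12.4 CPM. Against a floor of 3 counts per library its mean was at least 141-fold lower at maintenance (edgeR adjusted p 0.0287, and 0.0502 with the GC offset). It was the 1 fallen gene in which replicate 2 was not the lowest of the 4 non-dopaminergic libraries.

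Itga7 and Epha8 were also at 0 in every maintenance library. Itga7, an integrin chain that binds laminin, stood at 4.24, 7.58, 13.8 and 5.26 CPM in food training and at 14.4 to 20.6 CPM in abstinence. It was at least 103-fold lower against the same floor (edgeR adjusted p 0.0103). Epha8, an ephrin receptor tyrosine kinase, held 6.57, 16.0, 9.66 and 8.09 CPM in food training and was at least 134-fold lower (edgeR adjusted p 0.0184). Genes with 0 counts in a whole group occurred both ways: 23 genes were at 0 in all 3 maintenance libraries with at least 20 counts in each food-trained library, and 17 the other way round. With at least 100 counts in the other group there were 12 and 1. Of the 12, 5 had counts in all 4 abstinence libraries, and 0 were at 0 in non-dopaminergic replicate 2.

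Chpf2, which helps to build chondroitin sulfate chains of the extracellular matrix, fell by 2.06 (SE 0.29, edgeR adjusted p 0.0150). It stood at 58.5, 75.2 and 51.7 CPM at maintenance and at 220, 317, 234 and 262 CPM in food training, with no overlap. Under the GC offset its edgeR adjusted p was 0.079. Its partner Chpf stood at 65.0 to 86.7 CPM against 112 to 497 CPM and did not pass (log2 fold change -1.84, edgeR adjusted p 0.163).

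Lars2, Pcx and Fastk, whose products are found in mitochondria, fell. Lars2, the mitochondrial leucyl-tRNA synthetase, stood at 31.9, 58.4 and 32.6 CPM at maintenance and at 166, 207, 274 and 140 CPM in food training. Pcx, pyruvate carboxylase, was at 0.268, 2.69 and 0.681 CPM against 36.1, 19.4, 16.9 and 69.2 CPM. Fastk, an RNA-binding protein, was at 17.5, 17.4 and 8.22 CPM against 75.1, 45.3, 46.5 and 78.9 CPM. All food-trained libraries exceeded all maintenance libraries for the 3 genes. Log2 fold changes were -2.26 in Lars2 (edgeR adjusted p 0.0184), -4.89 in Pcx (0.0327) and -2.1 in Fastk (0.0344), and Lars2 and Pcx also passed under the GC offset, at 0.037 and 0.0487, while Fastk did not, at 0.108.

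Msi2, Atxn2l and Leng8 fell as well. Msi2, an RNA-binding protein of the Musashi family, is the called gene with the lowest GC content, 42.3%. It stood at 112, 110 and 63.3 CPM at maintenance and at 197, 411, 576 and 396 CPM in food training, and it fell by 2.06 (SE 0.34, edgeR adjusted p 0.0344), and fell by 2.15 with the GC offset (edgeR adjusted p 0.037). Atxn2l, an RNA-binding protein of stress granules, fell by 3.05 (edgeR adjusted p 0.0159), from 35.1 to 88.4 CPM to 5.16 to 12.6 CPM. Leng8 fell by 2.51 (edgeR adjusted p 0.0150), from 294 to 568 CPM to 50.1 to 116 CPM. The last 2 also passed under the GC offset, at an edgeR adjusted p of 0.0301 and 0.0302.

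Atf6b, a membrane-bound transcription factor of the endoplasmic reticulum stress response, fell by 1.98 (edgeR adjusted p 0.0268), from 79.0 to 187 CPM to 25.5 to 41.6 CPM. Zfp276, a zinc finger protein, fell by 2.19 (edgeR adjusted p 0.0265), from 40.3 to 59.3 CPM to 9.29 to 11.2 CPM. Neither passed under the GC offset, at an edgeR adjusted p of 0.137 in Atf6b and 0.154 in Zfp276. Trp53inp2, which acts in autophagy and as a nuclear receptor coactivator, stood at 47.1, 49.3 and 38.8 CPM at maintenance and at 161, 138, 144 and 184 CPM in food training. The 2 sets were tight and far apart, and Trp53inp2 fell by 1.80 (SE 0.23, edgeR adjusted p 0.0103), and fell by 1.69 with the GC offset (edgeR adjusted p 0.0155).

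Olig1, a transcription factor of the oligodendrocyte lineage, is not a gene of dopamine neurons. It stood at 0.206, 0 and 0 CPM at maintenance and at 50.3, 20.9, 16.7 and 43.7 CPM in food training. Non-dopaminergic libraries other than replicate 2 held 111 to 133 CPM, and replicate 2, from mice without cocaine, was the lowest of the 4. The log2 fold change of Olig1 was -8.72 (SE 1.09, edgeR adjusted p 0.0103).

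Other oligodendrocyte markers were lower to different degrees. Of 16 tested, 10 were lower, of which Olig1 alone passed, 4 were lower at an unadjusted p under 0.05 (25% of the list, beside 6.74% of all genes), and the median log2 fold change was -0.76, against -0.01 over all genes. With the GC offset the median was -0.57. Mobp, a myelin protein, stood at 54.2, 27.8 and 39.9 CPM at maintenance and at 106, 56.5, 159 and 135 CPM in food training, with no overlap (log2 fold change -1.49, edgeR adjusted p 0.168). The summed CPM of the list was 1806, 1210 and 1392 at maintenance, 2923, 2336, 1828 and 2526 in food training and 1252 to 2127 in abstinence. The non-dopaminergic libraries summed to 9925 to 23710 CPM, with the highest sum in replicate 2, where Olig1 was lowest. The sums at maintenance thus lay under every food-trained sum, but narrowly, at 1806 in maintenance replicate 1 and 1828 in food-trained replicate 3. Single markers differed, with 6 of the 16 higher at maintenance. The part of oligodendrocyte RNA in the other results was not tested. In bulk nuclei, fewer nuclei of a type and less RNA per nucleus cannot be told apart.

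Markers of other cell types did not separate the stages as sums. Astrocyte markers summed to 1014 to 1326 CPM at maintenance and 958.5 to 1294 CPM in food training, and microglia markers to 545.6 to 1107 and 582.5 to 1175 CPM. Sums of the GABA neuron markers were 615.2 to 1087 and 566.6 to 1333 CPM. No member of these lists passed. Astrocyte markers were higher in 7 of 12 and lower in 5. Without overlap, 2 of them were higher and 1 lower (25% of the list, beside 8.5% of all genes). The lower one was Aldh1l1, an astrocyte enzyme, at 18.1, 3.35 and 9.83 CPM against 38.7 to 62.7 CPM (log2 fold change -2.18, edgeR adjusted p 0.162). Among 12 microglia markers, 2 were higher and 0 lower without overlap (16.7% of the list). P2ry12, a microglial purine receptor, was higher without overlap at 110, 100 and 54.9 CPM against 36.5 to 52.2 CPM (1.01, edgeR adjusted p 0.289), while Cx3cr1, another microglial receptor, was lower (-1.08, edgeR adjusted p 0.396).

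Several pairs among the 25 genes share their locus with another protein-coding gene in RefSeq, and the use of strand in counting is not given in the sources used here. These are Itga7 with Mettl7b, Chpf2 with Smarcd3, Plppr3 with Ptbp1, Zfp276 with Vps9d1 and Fanca, Pcx with Lrfn4, and Palm with Prss57. Their counts could include reads of the neighbour.

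The called genes also had GC-rich promoters. The 250 bases upstream of the RefSeq starts (GRCm38.p6) had a median GC of 66% in the 33 windows of the 20 called genes that had one, against 52.4% over 32851 windows. The GC box GGGCGG, read on both strands, was in 63.6% of the 33 windows and 32.7% of all, and the E-box CACGTG in 24.2% and 6.02%. The cAMP response element TGACGTCA was in 12.1% of the 33 and 1.55% of all, from the windows of Msi2 and Trp53inp2 only. The AP-1 site TGANTCA was in 3.03% and 6.75%. These shares are descriptions of letters, the windows of 1 gene overlap, and no motif was tested. The 32851 windows were not limited to genes tested here and were not matched for transcript GC. Windows of 3 fallen genes are shown because they range from 8 GC boxes to none, with both windows of Arhgdia, and capitals mark a GC box on either strand or, in Atf6b, the E-box.
Igsf8, chr1:172312117-172312366, plus strand: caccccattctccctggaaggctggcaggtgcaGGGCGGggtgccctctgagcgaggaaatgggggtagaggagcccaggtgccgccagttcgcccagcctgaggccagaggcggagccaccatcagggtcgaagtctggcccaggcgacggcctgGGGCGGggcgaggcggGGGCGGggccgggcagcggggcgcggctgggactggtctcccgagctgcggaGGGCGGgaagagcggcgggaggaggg
Arhgdia, chr11:120581248-120581497, minus strand: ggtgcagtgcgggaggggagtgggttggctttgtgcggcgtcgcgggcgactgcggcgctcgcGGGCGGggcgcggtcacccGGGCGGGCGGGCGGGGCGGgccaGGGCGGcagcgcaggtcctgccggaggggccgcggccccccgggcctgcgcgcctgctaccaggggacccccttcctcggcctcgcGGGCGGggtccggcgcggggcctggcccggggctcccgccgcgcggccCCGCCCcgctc
Arhgdia, chr11:120581625-120581874, minus strand: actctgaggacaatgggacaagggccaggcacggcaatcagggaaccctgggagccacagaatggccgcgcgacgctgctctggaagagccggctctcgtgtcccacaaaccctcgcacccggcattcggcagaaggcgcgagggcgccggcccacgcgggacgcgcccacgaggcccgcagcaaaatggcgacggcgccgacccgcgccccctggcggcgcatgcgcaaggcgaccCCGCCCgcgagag
Atf6b, chr17:34646896-34647145, plus strand: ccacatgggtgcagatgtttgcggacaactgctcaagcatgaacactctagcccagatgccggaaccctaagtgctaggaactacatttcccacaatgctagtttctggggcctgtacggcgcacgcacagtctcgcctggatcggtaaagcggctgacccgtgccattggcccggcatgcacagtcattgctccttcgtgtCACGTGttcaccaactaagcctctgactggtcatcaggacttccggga
Igsf8 held 4 GC boxes in a window of 74.8% GC. Arhgdia held 8 in the first of its windows, of 84.8% GC, and 1 in the second, of 72% GC. The start of the first of these matched no GENCODE transcript start, while that of the second did. Atf6b held none, with 1 E-box in a window of 56% GC.

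Genes just outside the threshold lay in both directions. The 8 higher genes next in rank by p-value, with at least 20 mean counts and no overlap, were Nup98, Kcna2, Cdr1, Taf3, Nav1, Zmat1, Phf20 and Ajap1. Kcna2, the Kv1.2 potassium channel subunit, stood at 282, 216 and 333 CPM at maintenance and at 112, 117, 80.4 and 62.0 CPM in food training (log2 fold change 1.58, edgeR adjusted p 0.065). Nup98, a nuclear pore protein, stood at 117, 96.2 and 116 CPM against 36.7, 50.0, 47.3 and 49.3 CPM (1.26, edgeR adjusted p 0.0626). Taf3, a subunit of the general transcription factor TFIID that binds methylated histone H3, stood at 91.1, 113 and 97.0 CPM against 29.7 to 46.0 CPM (1.48, edgeR adjusted p 0.090). In all 3 the lowest maintenance library lay far above the highest food-trained one. Cdr1 was at 79.5 to 122 CPM against 14.7 to 43.5 CPM (1.90, edgeR adjusted p 0.0876), but its locus is known for an antisense circular RNA that unstranded counts cannot separate. Log2 fold changes of the remaining 4 lay between 1.20 (Phf20) and 1.48 (Zmat1).

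The 8 lower genes of the same rank were Tmem229a, Zfp871, Elmo2, Rusc1, Sept5, Agpat1, Cdh24 and Ptpn5. Zfp871, a zinc finger gene with a GC-poor transcript (40%), stood at 69.2, 61.7 and 56 CPM against 234, 283, 125 and 194 CPM (log2 fold change -1.74, edgeR adjusted p 0.0508). Ptpn5, the striatal-enriched phosphatase STEP, stood at 137, 137 and 106 CPM against 363, 254, 315 and 386 CPM (-1.38, edgeR adjusted p 0.0626). Cdh24, a cadherin, was nearly undetected at maintenance, at 0.124, 0.694 and 1.58 CPM, against 12.8 to 51.8 CPM (-5.14, edgeR adjusted p 0.0625). These 8 were also picked for having no overlap between the groups, and the other 5 had log2 fold changes from -1.48 (Rusc1) to -2.05 (Elmo2).

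Gene lists by function were then described by counts and medians, without a test of the list. Over 36 pathway and 8 marker lists, 28 had a median under 0 and 16 over 0, where the median of all genes was -0.01, with 49.2% of all genes higher and 50.4% lower. The list medians ran with GC content, with a Spearman correlation of -0.389 between a list's median log2 fold change and its median GC over 44 lists that share the libraries. The GC offset changed the sign of 9 of the 44 list medians, the GC and length offset of 10 and the GC slope as a covariate of 17. With that covariate the median of all genes was 0.17.

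**Figure D3:**
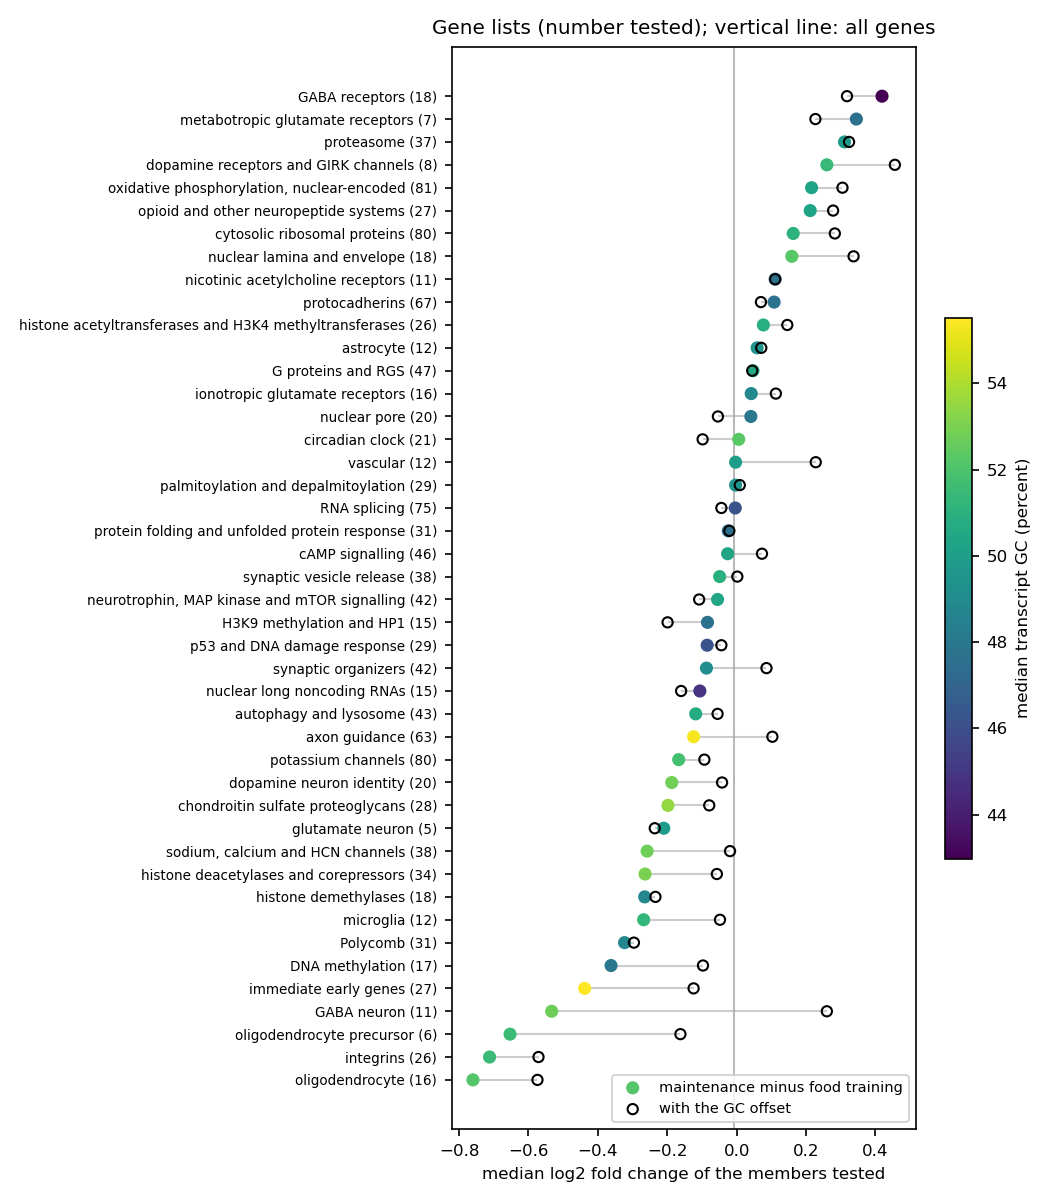
Median log2 fold change of each gene list, maintenance minus food training, coloured by median transcript GC, with open circles for the same median under the GC offset and the number of genes tested in brackets. Oligodendrocyte genes and integrins are lowest in both, and several other lists move toward or over 0 with the offset.

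Immediate early genes, which neurons switch on within minutes of strong activity, were mostly lower: 19 of 27 tested against 8 higher, where 50.4% of all genes were lower. At an unadjusted p under 0.05, 2 were lower and 0 higher (7.41% of the list, less than the 11.6% of all genes). The list had a median of -0.44, and -0.12 with the GC offset. With the GC slope as a covariate the median turned to 0.70. None passed. Jun, a subunit of AP-1, stood at 12.1, 17.9 and 12.2 CPM at maintenance and at 58.9, 48, 35.9 and 40.5 CPM in food training (log2 fold change -1.70, edgeR adjusted p 0.090). Junb, its relative, stood at 7.72, 6.39 and 10.3 CPM against 28.6, 44.5, 50.1 and 22.4 CPM (-2.16, edgeR adjusted p 0.090). Both are among the 4 lower and 0 higher members without overlap (14.8% of the list, beside 8.5% of all genes). Both transcripts are GC-rich, at 55.5% and 62.6%. Creb1, the cAMP-responsive transcription factor upstream of several of these genes, has a transcript of 39.6% GC and was lower with overlap, at 33.1 to 50.9 CPM against 50.1 to 99.1 CPM (-0.84, edgeR adjusted p 0.364). Among clock genes, 2 of 21 (9.52%) were lower and 0 higher at an unadjusted p under 0.05, less than the 11.6% of all genes. Dbp, an output gene of the clock, stood at 14.2, 23.6 and 3.92 CPM against 31.0 to 71.7 CPM (-1.79, edgeR adjusted p 0.261).

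Genes of dopamine neuron identity showed no called change. Of 20, 15 were lower and 5 higher, with a median of -0.19 (-0.04 with the GC offset). Pitx3, a transcription factor that keeps midbrain dopamine neurons, stood at 0.929, 3.17 and 3.70 CPM at maintenance and at 22.8, 15.6, 62.9 and 13.9 CPM in food training. The groups did not overlap (log2 fold change -3.47, edgeR adjusted p 0.130), and its transcript, at 68.3% GC, is the most GC-rich named here. Ret, the receptor subunit for GDNF, stood at 870, 1078 and 980 CPM against 1144, 1356, 1214 and 2167 CPM (-0.59, edgeR adjusted p 0.445). Of 8 dopamine receptor and GIRK channel genes 5 were higher, with a median of 0.26 (0.46 with the GC offset). Kcnj3, which encodes the channel subunit GIRK1, stood at 104, 41.0 and 74.5 CPM against 52.6, 23.0, 24.4 and 37.3 CPM (1.10, edgeR adjusted p 0.387).

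Ion channels went both ways. Of 80 potassium channel genes, 0 passed, while 12 were lower and 4 higher at an unadjusted p under 0.05 (20% of the list, beside 11.6% of all genes). Kcnh2, the ERG channel, stood at 40.5, 30.0 and 20.1 CPM against 119, 75.1, 80.7 and 98.4 CPM (log2 fold change -1.63, edgeR adjusted p 0.0915), and Kcnk9, the leak channel TASK-3, at 2.17, 4.92 and 4.74 CPM against 9.84 to 27.9 CPM (-2.31, edgeR adjusted p 0.178). With Kcna2 among the higher genes, the list holds members without overlap on both sides: 8 lower and 4 higher (15% of the list, beside 8.5% of all genes). Of 38 sodium, calcium and HCN channel genes, 0 passed. Hcn3, a pacemaker channel, stood at 33.9, 36.6 and 14.0 CPM against 115, 62.6, 107 and 97.8 CPM (-1.76, edgeR adjusted p 0.0861). Scn2b, a sodium channel beta subunit, was at 1819, 785 and 1877 CPM against 489 to 1017 CPM, so that maintenance replicate 2 lay within the food-trained range (1.06, edgeR adjusted p 0.376).

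Receptors for GABA and glutamate held no called member. GABA receptor genes had a median of 0.42 over 18, and of 0.32 with the GC offset, and this list has the lowest median GC of the 44, 43.0%. In it 12 were higher and 5 lower. At an unadjusted p under 0.05, 4 were higher and 2 lower (33.3% of the list, beside 11.6% of all genes). Gabbr1, the GABA-B receptor subunit whose transcript is 53% GC, was at 606, 763 and 667 CPM against 897, 1090, 1075 and 1199 CPM (-0.65, edgeR adjusted p 0.364). The ionotropic glutamate receptors split evenly, with 8 of 16 on each side. Gria3, an AMPA receptor subunit (39.8% GC), was at 373, 338 and 295 CPM against 220 to 263 CPM (0.45, edgeR adjusted p 0.419), and Grin2c, an NMDA receptor subunit (62.1% GC), at 2.19, 9.80 and 5.28 CPM against 11.1 to 30.6 CPM (-1.77, edgeR adjusted p 0.324). Both pairs of groups were free of overlap, in opposite directions. Chrna7, the alpha7 nicotinic receptor, has a GC-poor transcript (44.3%) and was lower without overlap, at 7.21 to 12.5 CPM against 20 to 42.6 CPM (-1.61, edgeR adjusted p 0.404).

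The 2 synaptic lists, which do not include Svop, held no called member: of 38 synaptic vesicle release genes 17 were higher and 21 lower, and of 42 synaptic organizers 18 and 24. Nrxn2, a presynaptic adhesion protein with a transcript of 62.4% GC, stood at 392, 438 and 409 CPM against 786, 770, 927 and 1032 CPM (log2 fold change -1.09, edgeR adjusted p 0.185). Its maintenance libraries were close together and all under the lowest abstinence library, at 509 CPM. Dlg4, the postsynaptic scaffold PSD-95, has a lower GC content of 46.8% and stood at 21.8, 19.5 and 8.49 CPM against 27.0 to 57.2 CPM (-1.40, edgeR adjusted p 0.230). Of the SNARE proteins of vesicle fusion, Stx1a (57.9% GC) was at 4.26 to 16.3 CPM against 33.8 to 89.5 CPM (-2, edgeR adjusted p 0.302) and Snap25 (38.7% GC) at 621 to 836 CPM against 405 to 524 CPM (0.56, edgeR adjusted p 0.396). Among axon guidance genes, 27 of 63 were higher and 36 lower, and the median of -0.12 turned to 0.10 with the GC offset. Epha8 was the called member. The receptor Unc5a was lower at 13.0 to 33.5 CPM against 48.2 to 78.4 CPM (-1.59, edgeR adjusted p 0.219), and Epha7 was higher at 154 to 265 CPM against 98.4 to 151 CPM (0.74, edgeR adjusted p 0.386).

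The integrin list, which also holds genes named for binding integrins, had one of the lowest medians, -0.71 over 26 genes. It was -0.57 with the GC offset and -0.14 with the GC slope as a covariate. Itga7 was the called member, and 18 of 26 were lower. At an unadjusted p under 0.05, 2 were lower and 0 higher (7.69% of the list, less than the 11.6% of all genes). Without overlap, 3 were lower and 2 higher (19.2%, beside 8.5% of all genes). Itga3, which pairs with the beta1 chain to bind laminin, stood at 52.2, 88.0 and 78.1 CPM against 124, 186, 111 and 218 CPM (log2 fold change -1.14, edgeR adjusted p 0.305).

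The series names repressive chromatin in its title, and chromatin genes were therefore described by class. The nuclear lamina and envelope list held the called gene Prr14 among 18, with 10 higher and a median of 0.16 (0.34 with the GC offset). Lemd3, an inner nuclear membrane protein of the same list, stood at 123, 78.5 and 83.9 CPM against 64.9, 29.9, 36.3 and 44.1 CPM (log2 fold change 1.12, edgeR adjusted p 0.211). Polycomb genes, whose products keep genes silent through histone H3K27 methylation and H2A ubiquitination, were lower in 23 of 31, with a median of -0.32 (-0.30 with the GC offset). None passed. Phf1, a Polycomb accessory subunit, stood at 3.08, 17.9 and 11.7 CPM against 71.0, 44.4, 89.4 and 40 CPM (-2.49, edgeR adjusted p 0.0995), and Cbx6 at 39.4, 61.8 and 32.2 CPM against 146, 86.5, 157 and 122 CPM (-1.52, edgeR adjusted p 0.0995). The share of Polycomb genes at an unadjusted p under 0.05 was 12.9%, near the 11.6% of all genes.

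H3K9 methylation and HP1 genes held no member at an unadjusted p under 0.05 among 15, with a median of -0.08 that turned to 0.07 with the GC slope as a covariate. Setdb1, an H3K9 methyltransferase, was at 10.8 to 23.7 CPM against 8.34 to 14.7 CPM (log2 fold change 0.59, edgeR adjusted p 0.712), with higher levels of 29.8 to 63.4 CPM in abstinence. Histone acetyltransferases and H3K4 methyltransferases had 4 of 26 members higher and 0 lower at an unadjusted p under 0.05 (15.4% of the list, beside 11.6% of all genes). Crebbp, the coactivator CBP, stood at 218, 269 and 286 CPM against 115, 152, 208 and 145 CPM (0.74, edgeR adjusted p 0.383). Ncoa3 stood at 124, 89.8 and 101 CPM against 40.6 to 73.0 CPM (0.90, edgeR adjusted p 0.292), and Setd1b at 61.5 to 86.7 CPM against 13.4 to 49.3 CPM (1.20, edgeR adjusted p 0.399), with a transcript of 59.0% GC. All 3 were higher without overlap.

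Histone deacetylases and their corepressors had 6 of 34 lower and 2 higher at an unadjusted p under 0.05 (23.5% of the list, beside 11.6% of all genes), and a median of -0.26 that moved to -0.06 with the GC offset. Sin3b, a corepressor scaffold, was at 28.7, 22.8 and 30.5 CPM against 54.6, 76.0, 49.0 and 57.8 CPM (log2 fold change -1.12, edgeR adjusted p 0.152). Kdm1a, the demethylase LSD1, was higher at 47.3, 60.6 and 21.4 CPM against 12.5 to 20.1 CPM (1.40, edgeR adjusted p 0.278). Dnmt3a, a DNA methyltransferase, was at 103, 193 and 107 CPM against 190, 228, 260 and 233 CPM, so that maintenance replicate 2 overlapped the food-trained libraries (-0.77, edgeR adjusted p 0.360). None of these genes passed.

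Housekeeping machinery was on the higher side, with small differences. Nuclear-encoded oxidative phosphorylation genes were higher in 61 of 81 (beside 49.2% of all genes), cytosolic ribosomal protein genes in 55 of 80 and proteasome genes in 32 of 37. Their medians were 0.22, 0.16 and 0.31, and 0.31, 0.28 and 0.32 with the GC offset. With transcript length in the offset as well they were 0.07, 0.05 and 0.16, and without maintenance replicate 2 they were 0.25, 0.04 and 0.33. None passed. These are short transcripts, with median lengths of 1046, 1076 and 1883 bases. In non-dopaminergic replicate 2, which had no cocaine, 73 of the 81, 74 of the 80 and 34 of the 37 were at their highest of the 4 libraries, against 38.6% of all genes.

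Rpl6 stood at 87.1, 99.5 and 90.8 CPM at maintenance and at 62.0, 38.1, 45.5 and 40.1 CPM in food training (log2 fold change 0.99, edgeR adjusted p 0.185), and Rpl7 at 70.3, 98.3 and 100 CPM against 18.8 to 57.6 CPM (1.23, edgeR adjusted p 0.229). Both ribosomal protein genes were free of overlap. The proteasome subunit Psmb1 stood at 103 to 158 CPM against 52.1 to 90.4 CPM (0.71, edgeR adjusted p 0.365), while the regulatory subunit Psmd3, with 55.4% GC, was at 21.8 to 58.3 CPM against 55 to 127 CPM (-1.38, edgeR adjusted p 0.219). Likewise the ATP synthase gene Atp5d (59.3% GC) was at 16.1 to 40.9 CPM against 52.5 to 111 CPM (-1.30, edgeR adjusted p 0.221), against the direction of its list.

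Of 31 genes of protein folding and the unfolded protein response, 15 were higher, 16 lower and 0 passed. The cytosolic chaperone Hsp90aa1 stood at 384, 487 and 453 CPM against 279, 208, 317 and 203 CPM (log2 fold change 0.81, edgeR adjusted p 0.218), and Hspa8 at 1365, 822 and 1342 CPM against 386 to 861 CPM (0.86, edgeR adjusted p 0.392). Syvn1, the ubiquitin ligase of endoplasmic reticulum-associated degradation, was lower at 62.5, 99.0 and 67.5 CPM against 219, 285, 142 and 289 CPM (-1.62, edgeR adjusted p 0.0915). Of 43 autophagy and lysosome genes, 1 fell, Trp53inp2. Atg9a, an autophagy membrane protein, was at 54.0 to 72.9 CPM against 122 to 379 CPM (-1.98, edgeR adjusted p 0.168), and Atp13a2, a lysosomal transporter linked to parkinsonism, at 80.9 to 118 CPM against 146 to 359 CPM (-1.36, edgeR adjusted p 0.174). Ppt1, the lysosomal enzyme that removes palmitate, was at 621, 309 and 472 CPM against 159 to 374 CPM (0.90, edgeR adjusted p 0.359), the other way from Lypla2.

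Growth factor signalling held no called gene: of 42 neurotrophin, MAP kinase and mTOR genes 5 were lower and 1 higher at an unadjusted p under 0.05, or 14.3% beside 11.6% of all genes. The kinases Akt2 (6.40 to 14.2 CPM against 22.0 to 43.3 CPM, edgeR adjusted p 0.190) and Map2k2 (23.2 to 57.4 CPM against 69.8 to 114 CPM, edgeR adjusted p 0.290) were both lower without overlap. Neuropeptide genes were higher in 18 of 27, with a median of 0.21 (0.28 with the GC offset). Adcyap1, which encodes the peptide PACAP, was at 163, 153 and 84.8 CPM against 56.8 to 92.6 CPM (log2 fold change 0.79, edgeR adjusted p 0.361). Among 75 splicing genes 0 passed, 36 were higher and 39 lower. Hnrnpk (42.9% GC) was higher, at 201 to 244 CPM against 132 to 157 CPM (0.65, edgeR adjusted p 0.290), and Snrnp70 (57.3% GC) lower, at 179 to 322 CPM against 401 to 702 CPM (-1.03, edgeR adjusted p 0.223).

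The GC trend was continuous across genes. The median log2 fold change was 0.14 in 1023 genes under 40% GC, 0.06 in 3491 genes of 48 to 52%, -0.39 in 2126 genes of 56 to 60% and -0.67 in 774 genes at 60% and over. In the last group 21.4% of genes were lower at an unadjusted p under 0.05 and 1.68% higher, against 2.53% and 7.48% in the 2487 genes of 40 to 44%. Across 13375 genes the Spearman correlation of the fold change was -0.275 with GC content, -0.0747 with transcript length and 0.00242 with gene span (12892 genes). With the GC offset the bin medians lay between 0.03 and 0.07, but the offset is fitted to each library's trend on GC and flattens them by construction.

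**Figure D4:**
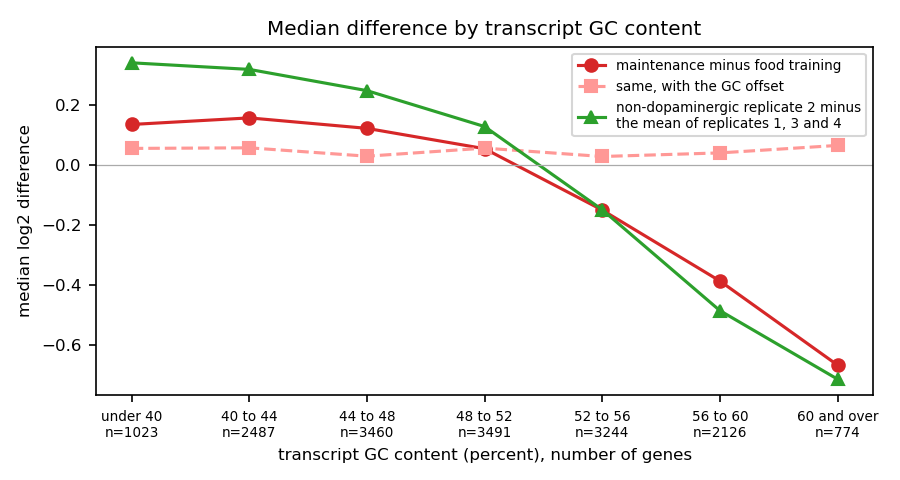
Median log2 difference by transcript GC content, for maintenance minus food training (circles), the same with the GC offset (squares), and non-dopaminergic replicate 2 minus the mean of the other 3 (triangles). Both uncorrected lines fall with GC content, to -0.67 and -0.71 at 60% and over. The squares are flattened by construction of the offset.

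Non-dopaminergic replicate 2, from mice without cocaine, had a GC trend in the same direction, and whether the 2 share a cause was not tested. That replicate was singled out with its GC slope known. Its difference from the other 3 non-dopaminergic libraries went from a median of 0.34 under 40% GC to -0.71 at 60% and over. Gene by gene, that difference ran with the one between maintenance and food training, with a Spearman correlation of 0.451 over 13332 genes, and of 0.336 once the GC offset was applied to the latter. The 2 differences come from separate sorted populations, although the food-trained samples of both come from 1 stage and genes are not independent replicates. Replicate 2 was the lowest of the 4 non-dopaminergic libraries in 23 of the 24 fallen genes, against 29.1% of 17443 genes.

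**Figure D5:**
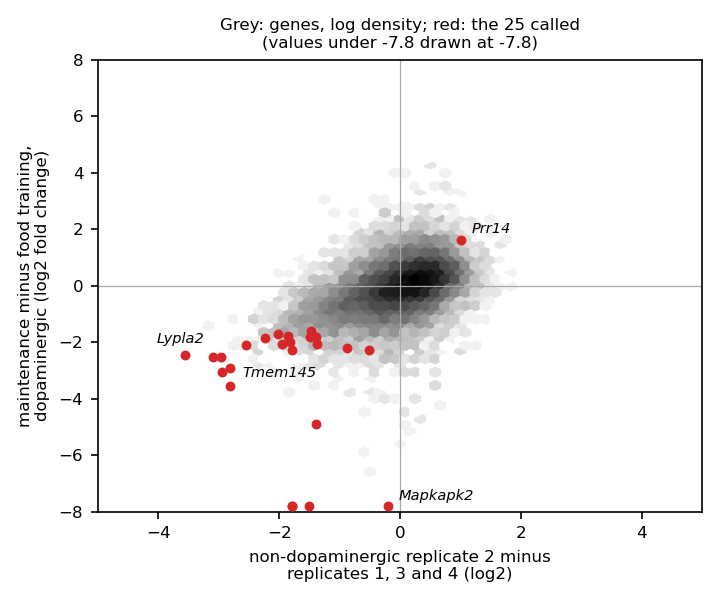
Log2 fold change of maintenance minus food training in dopaminergic nuclei against the log2 difference of non-dopaminergic replicate 2 from the other 3, per gene (grey, log density), with the 25 called genes in red and values past the lower end of the axis drawn at its edge. Most called genes are low on both axes, Prr14 is high on both, and Mapkapk2 is near 0 on the horizontal axis.

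In a fit of all 15 libraries with a term shared by the maintenance libraries and non-dopaminergic replicate 2, 0 genes passed the edgeR test, and 501 had an unadjusted p under 0.05. That term is estimated from 1 non-dopaminergic library against 3 and was defined with the GC slope of that library known. The maintenance difference is what remains after it, so genes that were low in replicate 2 move up by construction, and the values that follow are descriptions. Of the 25 called genes 18 kept their direction, and the median of the 24 fallen genes was -0.22 in place of -2.26. Under the GC offset it was -1.96. Olig1, Itga7, Epha8, Mapkapk2, Pcx, Lars2 and Zfp276 kept log2 fold changes under -1 with that term, at -7.17, -9.59, -9.89, -11.66, -3.46, -1.71 and -1.31, of which those of the 3 genes at 0 in maintenance are fitted values and no measure of size. Lypla2, Leng8, Rap1gap, Plppr3, Gpr162, Fastk and Igsf8 changed sign.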

How the data were processed

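RNA was sequenced from sorted VTA nuclei. Sample titles gave the groups, and columns were matched to samples by their short names. The authors deposited whole-number counts per gene for 15 samples and 35976 symbols. Nuclei were sorted by the HA tag and libraries made with a low-input kit, per the labels' protocols. The submitters' processing notes name Trim Galore 0.6.7, cutadapt 1.18, STAR 2.7.10a, StringTie 2.1.5 and DESeq2 1.38.3 and the builds mm10 and GRCm38, while the annotation and the use of strand are not given in the sources used here. Reads shared by overlapping genes or near-identical copies may be split. A second deposited table held the same counts (0 cells differed in 10 columns) and was not used further.

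In R 4.3.3, genes were kept by filterByExpr and libraries scaled by TMM factors. The contrast of maintenance and food training was tested two-sided in a fit of the 11 dopaminergic libraries with edgeR 4.0.16 (quasi-likelihood F-test, Benjamini-Hochberg adjusted p under 0.05). Alternative tests used limma 3.58.1 and DESeq2 1.42.0. CPM values use the TMM factors of all 15 libraries. Genes at 0 in all libraries of a group were set against a floor of 3 counts per library. GC content came from the longest GENCODE M21 transcript of a symbol (26763 matched directly, 514 by a synonym, 8699 without), positions and promoters from RefSeq GRCm38.p6. Library slopes on GC used genes with a mean log2 CPM over 4 (prior count 2), and the GC offset was a lowess per library (span 0.3). The exact permutation tests were run in R, and Python 3.11.15 was used for the list summaries, promoter windows and figures.

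The text names every called gene, list members among the 3 with the lowest p in each list, and the 8 higher and 8 lower genes next in rank averaging 20 counts or more without overlap. The comparison, the lists and the rules were chosen with earlier results of these data known. On simulated counts for this comparison (19060 genes), the test recovered 0% of 67 genes changed by 1 on the log2 scale, 14.9% of 67 changed by 2 and 36.4% of 66 changed by 3, with 1 false call. With no change it made 0 calls and gave 5.5% of genes an unadjusted p under 0.05. The simulated counts were drawn gene by gene, without a GC trend or a shift shared by libraries. These rates therefore do not cover false calls that such a trend could bring. Alternatives covered scaling, filters, tests, libraries in the fit, the replicate number, GC content and a shared library term. The values of some list members are not reported here.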

Additional observations from a re-analysis of the deposited data

Results flagged for a closer look

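In groups of 4 libraries, a single library stood far from the other 3 in 6 of 205 checked sets of CPM values (2.93%), where chance gives about 1 in 20. In food training these were Gad2 in replicate 2 (46.4 CPM, low), Snrnp70 in replicate 3 (702 CPM, high), Stx1a in replicate 1 (89.5 CPM, high) and Hcrtr1, the orexin receptor, in replicate 3 (11.2 CPM, low, within the maintenance range of 6.42 to 25.9 CPM). In abstinence they were Kdm1a in replicate 4 (39.2 CPM, high) and Rpl6 in replicate 3 (39.6 CPM, low).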

How the results depend on the processing

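With 15 libraries in the fit 18 genes were called, only 10 of them among the 25. The count of 25 stayed within 1.5 times there and under DESeq2 size factors (27), upper quartile scaling (22) and no filter (31). It moved to 109 (10 higher, 99 lower) with at least 10 counts in every library, 894 (215 higher, 679 lower) with the DESeq2 test, 9 with limma-voom quality weights, 1 with 7 libraries, 14 and 11 with the GC offset and the GC and length offset, 1 with the GC slope as a covariate, and 0 with the shared library term. Leaving out 1 library gave 5 to 78. The cause was not tested, beyond fewer genes tested in the stricter filter. Over all genes the median moved to -0.11 without maintenance replicate 2 and to 0.17 with the slope covariate.

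Replicate numbers do not pair the mice, which differ between stages, and same-numbered deviations correlated at 0.129, -0.0968 and -0.0712. With the replicate number as a block 0 genes were called (1253 at an unadjusted p under 0.05), and 0 with the block and the GC offset (1187).

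The GC slope difference was -0.0401 in transcripts of 1 to 5 kb (exact permutation p 0.0286), and -0.0413 to -0.0302 without 1 library (exact permutation p 0.10 to 0.133, in designs too small for 0.05).

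With the shared library term, which takes off by construction what the genes show in non-dopaminergic replicate 2, these log2 fold changes reversed: from lower to higher, Lypla2 1.18, Leng8 0.61, Rap1gap 0.49, Plppr3 0.40, Gpr162 0.35, Fastk 0.49, Igsf8 0.07, Rusc1 0.65, Sept5 0.17, Agpat1 0.17, Hcn3 0.21, Kcnh2 0.04, Gabbr1 0.24, Phf1 0.22, Cbx6 0.07, Sin3b 0.15, Atp13a2 0.59, Chpf 0.10, Syvn1 0.35, Snrnp70 0.08, Nrxn2 0.55, Dlg4 0.34, Stx1a 0.03, Unc5a 0.16 and Itga3 0.02. From higher to lower they were P2ry12 -0.01, Hsp90aa1 -0.21, Hspa8 -0.10, Rpl6 -0.13, Psmb1 -0.12, Snap25 -0.09 and Gria3 -0.19. Nrxn2 was 0.00 with the GC and length offset. The simulation covered the fit of 11 libraries without that term, where edgeR's test recovered 0% of 67 genes changed by 1 on the log2 scale.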
